A study of Mus musculus with 5 samples.

Results

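The genes described here are 7 enzymes that remove superoxide and peroxides: the superoxide dismutases Sod1, Sod2 and Sod3, catalase (Cat) and the glutathione peroxidases Gpx1, Gpx3 and Gpx4. They were found by symbol in a table of 11194 genes, and all 7 were present. The group was chosen from the difference that Sod3 showed between the wild type and knockout libraries in earlier results of these data. The members' values in that contrast are therefore given as a description and support nothing further. 2 members encode secreted proteins (Sod3 and Gpx3) and the other 5 encode enzymes that act inside the cell.

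Anti-Staufen1 immunoprecipitates of mouse skeletal muscle stem cells, described as quiescent, were sequenced. Staufen1 binds RNA that is folded into double strands, and the comparison asked which transcripts come down with it. 3 libraries came from Stau+/+ cells and 2 from Stau-/- cells, which serve as the background of the antibody. Both groups went through the same lysis, the same rabbit antibody to Staufen1, magnetic bead capture, high-salt washing and oligo(dT)-primed amplification. The strain, age and number of mice, and how the Staufen deletion was made, were not stated in the labels. Nothing says that libraries came from separate mice, so every error and p measures only the spread between these libraries, which may be technical. No input RNA was analysed here, so fewer cells of a type, less RNA per cell and lower recovery by the antibody cannot be told apart.

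Library totals ran from 33846391 to 105473455 counts in wild type and were 9370244 and 3091302 in knockout, so every knockout library was the shallower. Stau1 itself had 104.3 to 126.8 CPM (counts per 1000000 of the TMM-scaled library total) in wild type and 109.0 and 110.7 CPM in the libraries labelled knockout. Its RNA therefore did not check the label, and "wild type" and "knockout" below name the labels. Pax7, which defines muscle stem cells, had 238.7 ± 26.1 CPM (SD, n = 3) and 216.2 ± 50.2 CPM (SD, n = 2), so the labelled cell type was represented in both groups.

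Superoxide is a by-product of respiration and of oxidases, and the dismutases convert it to hydrogen peroxide and oxygen. Sod1 uses copper and zinc and works mainly in the cytosol, Sod2 uses manganese and works in the mitochondrial matrix, and Sod3 is a copper and zinc enzyme that is secreted and held at cell surfaces and in the matrix by heparan sulfate. Catalase destroys hydrogen peroxide in peroxisomes. Glutathione peroxidases reduce peroxides with glutathione: Gpx1 acts in the cytosol and mitochondria, Gpx3 is the extracellular form found in plasma, and Gpx4 reduces lipid hydroperoxides in membranes. Gpx1, Gpx3 and Gpx4 carry selenocysteine in the active site.

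The members differed widely in level per length. Levels are given as RPKM, the scaled count divided by the deposited gene length in kilobases, which is the sum of all annotated exons and can exceed the transcript the cells use. Gpx3 was the highest, at 2714, 2359 and 3067 RPKM in wild type 1 to 3 and 2067 and 1642 RPKM in knockout 1 and 2. Its mean ranked 11 of 11194 genes in wild type and 23 in knockout. Among the members it stood 8.84 times above Sod1, the next, in wild type and 3.76 times above it in knockout.

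Below Gpx3, Sod1 had 307.0 ± 64.0 RPKM in wild type (SD, n = 3) and 494.0 ± 41.7 RPKM in knockout (SD, n = 2). Gpx1 (190.6 ± 34.8 and 218.7 ± 49.0 RPKM) and Gpx4 (188.1 ± 9.25 and 182.8 ± 15.4 RPKM) came next. Their libraries overlapped in both groups, so the order of these neighbours is not resolved. Sod2 followed with 66.3 ± 12.6 and 48.0 ± 2.47 RPKM. At the low end, Sod3 had 30.4 ± 4.99 RPKM and Cat 18.2 ± 3.71 RPKM in wild type, with Sod3 the higher in 3 of 3 libraries. In knockout that order turned: Cat had 12.0 ± 0.420 RPKM and Sod3 7.07 ± 0.668 RPKM, with Cat the higher in 2 of 2 libraries. All other neighbours kept their order in both groups, and their libraries did not overlap.

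**Figure D1:**
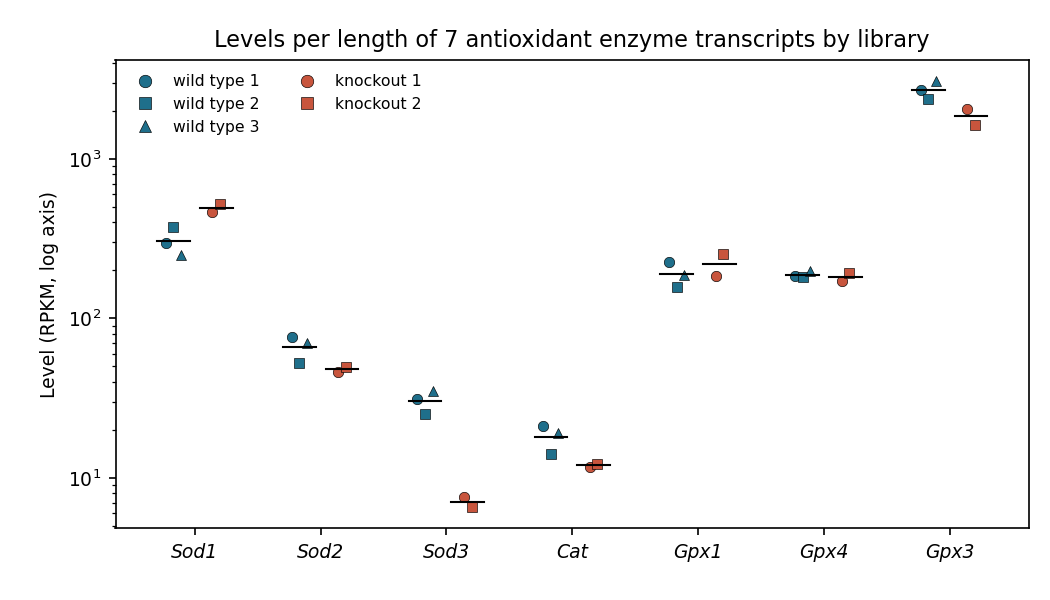
Level per length (RPKM, log axis) of each enzyme transcript in each library, with 1 symbol per library and a bar at the group mean. Gpx3 lies above all others, and Sod3 falls from 30.4 RPKM in wild type to 7.07 RPKM in knockout, below Cat.

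Sod3 was the member with the widest gap between the groups. The gene (Ensembl ENSMUSG00000072941, mm10 chromosome 5, 52363946 to 52371405, plus strand, 2 exon blocks, 3570 bases) had 111.2, 89.3 and 124.5 CPM in wild type 1 to 3 and 26.9 and 23.5 CPM in knockout 1 and 2. The lowest wild type library stood well above the higher knockout library. Group means were 108.3 ± 17.8 CPM (SD, n = 3) and 25.2 ± 2.39 CPM (SD, n = 2), a 4.29-fold difference. The log2 fold change, wild type over knockout, was 2.09 (SE 0.23, 95% interval 1.59 to 2.60), and 20 of the 11194 genes had a higher one. The knockout values rest on 257 and 74 counts, against 11500, 2935 and 8839 in wild type. Counting error alone gave 95% Poisson intervals of 24.2 to 31.0 and 18.8 to 30.1 CPM on total counts in knockout 1 and 2. These intervals cover counting error only, and the protocol mentions no molecular identifiers.

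The second secreted enzyme, Gpx3 (chromosome 11, 54902453 to 54910377, plus strand, 7 exon blocks), had 4921, 4277 and 5561 CPM in wild type and 3748 and 2977 CPM in knockout. Every wild type library lay above both knockout libraries, but the gap between the nearest libraries was smaller than the SD of either group. Means were 4920 ± 642 and 3363 ± 545 CPM, 1.46-fold apart, and the log2 fold change was 0.55 (SE 0.19, 95% interval 0.14 to 0.96). Secretion was thus shared by the member with the largest difference and by one whose difference was close to those of Sod2 and Cat.

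The cytosolic dismutase went the other way. Sod1 (chromosome 16, 90220742 to 90226322, plus strand, 5 exon blocks) had 192.0, 242.4 and 160.5 CPM in wild type and 300.0 and 338.2 CPM in knockout. Both knockout libraries lay above all 3 wild type libraries. The means of 198.3 ± 41.3 and 319.1 ± 27.0 CPM were 1.61-fold apart, with a log2 fold change of -0.69 (SE 0.20, 95% interval -1.12 to -0.25). It had the shortest gene of the group, 646 bases. Of the 565 genes up to 1000 bases, the median log2 fold change was -0.29 (quartiles -0.63 and 0.03), against 0.003 over all genes. Sod1 lay just below the lower quartile of this class. By edgeR, 4 of the class were called higher in wild type and 20 in knockout, beside 1.05% and 1.0% of all genes. In the classes of 1000 to 2000, 2000 to 4000 and over 4000 bases, the medians were -0.02, 0.05 and 0.01. The part of length in the Sod1 difference was not tested.

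The mitochondrial dismutase and catalase had modestly higher values in wild type. Sod2 (chromosome 17, 13007839 to 13018119, plus strand, 5 exon blocks) had 293.7, 199.8 and 266.7 CPM against 176.9 and 190.2 CPM. Wild type 2 lay close to knockout 2, so the groups were only just apart. The log2 fold change was 0.47 (SE 0.20, 95% interval 0.03 to 0.90). Cat (chromosome 2, 103453849 to 103485160, minus strand, 13 exon blocks) had 55.6, 36.7 and 50.0 CPM against 30.6 and 32.1 CPM, with wild type 2 again nearest to knockout. Its log2 fold change was 0.60 (SE 0.25, 95% interval 0.07 to 1.14), and its knockout values rest on 292 and 101 counts.

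Of the intracellular peroxidases, neither separated the groups. Gpx1 (chromosome 9, 108339080 to 108340338, plus strand, 2 exon blocks) had 236.5, 164.5 and 194.2 CPM in wild type and 191.6 and 263.7 CPM in knockout. The groups overlapped, with knockout 1 inside the wild type range and knockout 2 above it, and the log2 fold change was -0.19 (SE 0.21, 95% interval -0.65 to 0.26). Gpx4 (chromosome 10, 80047166 to 80056439, plus strand, 9 exon blocks) had 318.4, 312.2 and 342.4 CPM against 296.4 and 334.0 CPM. Its groups overlapped too, and it had the log2 fold change nearest to 0 of the members, 0.04 (SE 0.18, 95% interval -0.33 to 0.42). RefSeq lists Gpx4 pseudogenes elsewhere in the genome, and how the authors counted reads that map to several places was not stated.

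**Figure D2:**
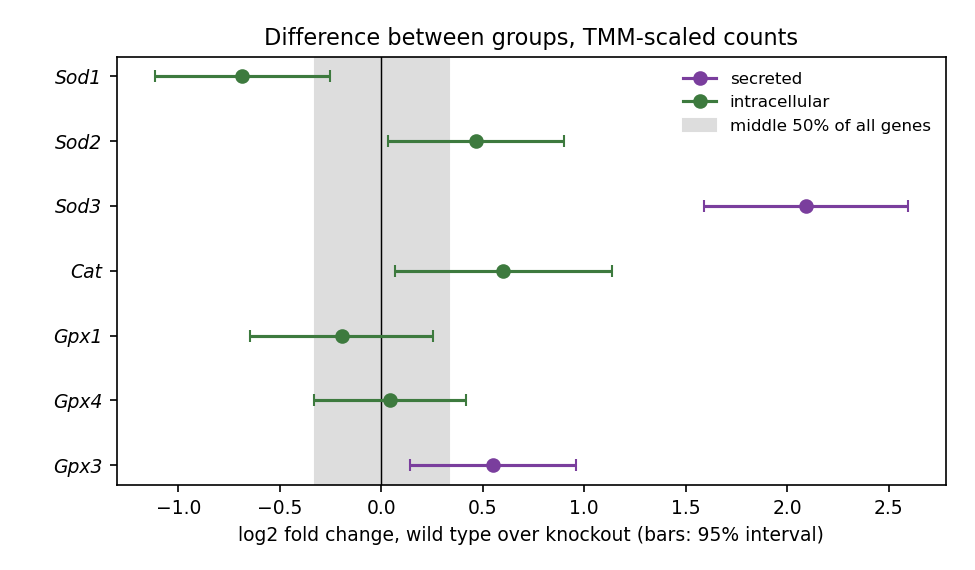
Log2 fold change of each enzyme transcript, wild type over knockout, with its 95% interval; colour marks secreted and intracellular enzymes and the grey band holds the middle 50% of all genes (-0.33 to 0.33). Sod3 stands at 2.09, Gpx3 at 0.55, and the intracellular enzymes run from -0.69 for Sod1 to 0.60 for Cat.

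1 of the 7 members, Sod3, was called higher in wild type by edgeR's quasi-likelihood test with Benjamini-Hochberg adjustment over all genes. No member was called higher in knockout. By that test, the unadjusted p was under 0.05 for Sod1, higher in knockout. It was also under 0.05 for Sod2, Cat and Gpx3, higher in wild type but not called. Of all 11194 genes, 2286 had an unadjusted p under 0.05. Over all genes 1.05% were called higher in wild type, 1.0% higher in knockout and 2.05% either way, and nothing is read from the comparison because this contrast chose the group. Libraries of the groups did not overlap with wild type above for 4 members (Sod2, Sod3, Cat and Gpx3) and with knockout above for 1 (Sod1), and they overlapped for 2. Over all genes, the corresponding shares were 20.4% with wild type above, 18.1% with knockout above and 38.4% in all. Sod3 was not called by limma-voom (log2 fold change 2.06, adjusted p = 0.0563), which called 8 genes higher in wild type over the whole table. Sod1 was called higher in knockout by DESeq2 (adjusted p = 0.0184), which called 457 genes higher in knockout over the whole table. By edgeR it was called higher in knockout when wild type 2 was left out (-0.85, adjusted p = 0.0362), 1 of 172 such genes.

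Ratios of raw counts within a library do not depend on how libraries are scaled. Sod3 over Sod1 was 0.579, 0.368 and 0.776 in wild type 1 to 3 and 0.0897 and 0.0696 in knockout 1 and 2, a 7.21-fold difference of the group means. Against the other intracellular enzymes the difference was smaller: the mean ratio was lower in knockout 4.80-fold over Gpx1, 4.13-fold over Gpx4, 3.12-fold over Sod2 and 2.86-fold over Cat. Wild type and knockout libraries were apart in each of these ratios. Against Gpx3, the other secreted enzyme, Sod3 had ratios of 0.0226, 0.0209 and 0.0224 in wild type, which lay closer together than the ratios to any intracellular enzyme, and of 0.00718 and 0.00791 in knockout.

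**Figure D3:**
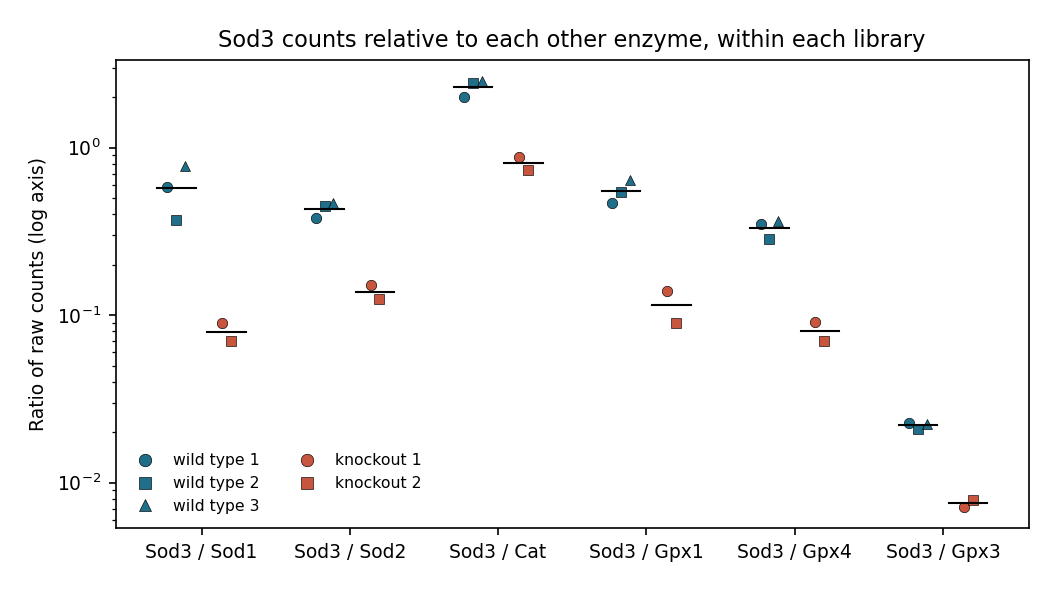
Raw counts of Sod3 divided by those of each other enzyme in the same library (log axis), with 1 symbol per library and a bar at the group mean. Every wild type ratio lies above every knockout ratio, and the gap is widest over Sod1 (7.21-fold) and narrowest over Cat (2.86-fold).

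The log2 CPM of Sod3 minus the mean log2 CPM of the 5 intracellular enzymes was -0.76, -0.80 and -0.45 in wild type 1 to 3 and -2.53 and -2.92 in knockout 1 and 2. In the fit, the log2 fold change of Sod3 exceeded the mean of theirs (0.05, range -0.69 to 0.60) by 2.05. For Gpx3 the same per-library difference was 4.71, 4.78 and 5.03 against 4.59 and 4.06, a shift of 0.52. The intracellular enzymes did not move as a block, so their mean near 0 combines a higher Sod1 in knockout with a higher Sod2 and Cat in wild type.

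Within the dismutase family the proportions shifted accordingly. By counts per length, Sod3 made up 7.69%, 5.53% and 9.88% of the 3 dismutases in wild type and 1.45% and 1.14% in knockout. Sod2 made up 16.8% ± 4.53 (SD, n = 3) and 8.75% ± 0.244 (SD, n = 2). Sod1 supplied the rest, 70.4% to 82.9% in wild type and 89.6% and 90.3% in knockout. Per length it had the highest value of the 3 dismutases in each library, but the order in raw counts was not the same throughout. In raw counts, Sod2 exceeded Sod1 in wild type 1 and 3 (ratios of 1.53 and 1.66) and not in the other libraries. Among the 3 glutathione peroxidases Gpx3 held 86.8% to 88.8% in wild type and 85.3% and 78.6% in knockout. The ratio of Sod2 to Cat counts varied little within each group, at 5.28, 5.44 and 5.34 in wild type and 5.78 and 5.92 in knockout. The groups were apart, with a wild type mean 0.914 times that of knockout, and the knockout ratios rest on 292 and 101 Cat counts.

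The profile of each gene over the 5 libraries, as log2(CPM + 1) centred on its mean, was compared with that of Sod3 across 8299 other genes of at least 10 CPM. The nearest were Hmgxb3 (root mean square difference 0.27), Bpnt1 (0.28), the BMP ligand Bmp6 (0.31), Bphl (0.31), Sbk2 (0.32) and Dag1, the dystroglycan precursor (0.33), against a median of 1.025 over the genes compared. Bmp6 had 105.6, 81.9 and 101.1 CPM in wild type and 32.99 and 34.99 CPM in knockout. Hmgxb3 and Bmp6 overlap other annotated genes, so their reads may be shared. Among the members, Gpx3 (0.74), Cat (0.74) and Sod2 (0.80) were nearest to Sod3. Sod1 was the farthest, at 1.395, and ranked 7755 of the 8299. The distances of the members largely restate their log2 fold changes. The mean profile of the intracellular enzymes was nearly flat, and it averages members that moved in opposite directions. Man1a2 (0.015), Gatad2a (0.022) and Rtn3 (0.025) lay nearest to it, against a median of 0.287 over the genes compared. Nearness to this mean is not nearness to each member. Rtn3 overlaps another annotated gene.

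Genes around these enzymes mostly did not pass the test. Of 163 measured genes in 9 lists of redox biology, edgeR's quasi-likelihood test called 5 higher in wild type and 1 in knockout, and 157 were not called. DESeq2 called 11 and 6, and 433 and 457 of all genes. Limma-voom called none, and 8 and 14 of all genes. Each call and each count of 0 in these lists thus belongs to the test named with it. The 3.68% called by edgeR compares with 2.05% of all genes, and the median log2 fold change was 0.15 against 0.003. An unadjusted edgeR p under 0.05 was found for 38 of the 163 and for 2286 of all 11194 genes. Counts of unadjusted p given below for single lists are to be read beside that share. Of the 5, Idh2 alone was still called when wild type 1, knockout 1 or knockout 2 was left out, and none was called when wild type 3 was left out.

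Copper supply is of interest because Sod3 receives copper in the secretory pathway from the transporter Atp7a, and Sod1 in the cytosol from its chaperone Ccs. Atp7a was 1 of 10 measured copper genes called by edgeR, and it was higher in wild type, as were 1.05% of all genes. It had 41.1, 44.8 and 44.2 CPM against 20.9 and 19.7 CPM, so the groups lay apart with little spread. The difference on the log2 scale was 1.09 (SE 0.24, edgeR adjusted p = 0.0379). The call was lost with any 1 library left out (adjusted p 0.061 to 0.141). Slc31a1, the copper importer of the plasma membrane, had 74.2 ± 10.1 and 38.5 ± 10.8 CPM (adjusted p = 0.0607 by edgeR and 0.0116 by DESeq2), and Ccs had 57.0 and 51.6 CPM on average. The metallothioneins Mt1 and Mt2, which bind copper and zinc, had log2 fold changes of -0.33 and -0.15. The list median was 0.09, and 4 of the 10 had an unadjusted edgeR p under 0.05.

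The list of Sod3 processing and heparan sulfate anchoring also held enzymes that make or modify heparan sulfate. Its median log2 fold change was 0.31 over 26 measured members, of which 21 were above 0. By edgeR 2 were called higher in wild type, beside 1.05% of all genes, and 24 passed neither way. An unadjusted edgeR p under 0.05 was found for 8 of the 26. Sdc4, a heparan sulfate syndecan of muscle stem cells, had 2314, 1757 and 1976 CPM against 970.7 and 1133 CPM (log2 fold change 0.94, edgeR adjusted p = 0.0251). Lrp1, an endocytic receptor, had 885.9 ± 41.0 and 533.9 ± 4.61 CPM (0.73, edgeR adjusted p = 0.0462). With 1 library left out, each was called only in the absence of wild type 2, and the edgeR adjusted p otherwise reached 0.0954 for Sdc4 and 0.145 for Lrp1. Lrp1 overlaps annotated lncRNAs, and its call also ended with RLE factors (edgeR adjusted p = 0.0502) and total counts (0.0554). Furin, the protease that trims the heparin-binding end of Sod3, had 114.8 and 92.5 CPM, and Fbln5, a matrix protein that binds Sod3, had 20.3 and 20.0 CPM.

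In the list of the Nrf2 regulator with heme, iron and NADPH genes, 2 of 24 were called in favour of wild type (Idh2 and Sqstm1), 1 in favour of knockout (Me1) and 21 not at all. The list median was 0.17, and 6 of the 24 had an unadjusted edgeR p under 0.05. Of all genes, 1.05% were called in favour of wild type and 1.0% in favour of knockout. Idh2, the mitochondrial enzyme that makes NADPH from isocitrate, had 159.4, 152.8 and 181.2 CPM against 73.5 and 71.6 CPM (1.18, edgeR adjusted p = 0.0120). Without wild type 3 its adjusted p was 0.0555. Sqstm1, the autophagy receptor p62, had 2711, 1994 and 2413 CPM against 1368 and 1376 CPM (0.79, edgeR adjusted p = 0.0473), and it overlaps Mrnip. With 1 library left out its call held only without wild type 2, and it also ended with RLE factors (edgeR adjusted p = 0.0509), upper-quartile factors (0.0514) and total counts (0.0574). Me1, the cytosolic malic enzyme, had 3.40 ± 0.246 against 12.95 ± 2.12 CPM (-1.94, edgeR adjusted p = 0.0387) and kept its call only when knockout 2 was the library left out. The call also ended after thinning (edgeR adjusted p = 0.104). An lncRNA overlaps it. Nfe2l2 itself had 103.4 and 81.5 CPM on average, and the target Hmox1 376.6 and 422.9 CPM.

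Peroxiredoxins and glutathione enzymes share the work of catalase and the glutathione peroxidases. Of 22 peroxiredoxin and thioredoxin genes, edgeR called 0 (3 had an unadjusted p under 0.05), limma-voom 0 and DESeq2 1, and the median was 0.08. Prdx3, the mitochondrial peroxiredoxin, had 26.6 ± 3.89 and 13.5 ± 2.94 CPM (adjusted p = 0.0979 by edgeR and 0.0482 by DESeq2), and Srxn1, which repairs oxidised peroxiredoxins, 470.6 ± 65.8 and 305.4 ± 79.1 CPM (edgeR adjusted p = 0.117). Of 26 glutathione genes, edgeR, DESeq2 and limma-voom each called 0, 2 had an unadjusted p under 0.05 by edgeR, and the median was 0.04. Gclc, the catalytic subunit of the first step of glutathione synthesis, had 42.1 and 40.3 CPM, while Gstt1 differed by 0.58 and Oplah, which overlaps Smpd5 and Exosc4, by -0.67 on the log2 scale (edgeR adjusted p = 0.158 and 0.171). The other measured peroxidases of the family, Gpx7 and Gpx8 of the endoplasmic reticulum, had 27.4 ± 1.37 and 16.6 ± 2.16 CPM and 21.4 ± 2.65 and 13.7 ± 2.34 CPM. Their groups were apart, but neither passed by edgeR (adjusted p = 0.156 and 0.267), DESeq2 or limma-voom, and both overlap other annotated genes.

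Gpx1, Gpx3 and Gpx4 share selenocysteine with a further set of proteins. Of 20 measured selenoprotein and selenocysteine machinery genes, edgeR called 0 (4 had an unadjusted p under 0.05), limma-voom 0 and DESeq2 2. A log2 fold change above 0 was found for 9, and the median was -0.04. Selenow had 205.2, 196.2 and 205.4 CPM against 301.2 and 319.7 CPM, with the groups apart (-0.62, adjusted p = 0.0713 by edgeR and 0.00841 by DESeq2). Sephs2, which makes the selenium donor, had 18.2 ± 3.12 and 7.62 ± 3.58 CPM (1.19, adjusted p = 0.0998 by edgeR and 0.0434 by DESeq2). Its log2 fold change moved to 1.84 without knockout 1 and to 0.84 without knockout 2, so its size rests on which knockout library is used. After thinning to the shallowest library it was 1.59 (edgeR adjusted p = 0.0484). Selenop, the secreted selenium carrier, had 102.6 and 112.0 CPM. The class thus held members on both sides.

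Of 15 genes of peroxisome assembly, which import catalase, edgeR called 0 (4 had an unadjusted p under 0.05), limma-voom 0 and DESeq2 1, and the median was 0.28. Pex5, the import receptor, had 99.2 and 94.6 CPM on average. Pex3 had 9.34, 10.1 and 18.6 CPM against 3.35 and 3.499 CPM (1.89, adjusted p = 0.0572 by edgeR and 0.00779 by DESeq2), and it overlaps Adat2. By edgeR it passed with the filter at 10 CPM (adjusted p = 0.0485) and after thinning (0.0477). Pex14, part of the import pore, differed by 0.91 on the log2 scale (edgeR adjusted p = 0.132), and it overlaps annotated lncRNAs and a pseudogene. Of 18 genes that produce superoxide or hydrogen peroxide, edgeR called 0 (6 had an unadjusted p under 0.05), limma-voom 0 and DESeq2 3, and the median was 0.17. Xdh, xanthine dehydrogenase, had 24.7, 22.9 and 42.3 CPM against 87.0 and 51.2 CPM (-1.22, adjusted p = 0.0513 by edgeR and 0.00563 by DESeq2). Xdh overlaps an annotated pseudogene. By edgeR it passed with the filter at 10 CPM (adjusted p = 0.0419), after thinning (0.0246), on total counts (0.0496) and without knockout 2 (0.0401) or wild type 3 (0.0478). Loxl1, an amine oxidase that crosslinks elastin, had 117.8 ± 24.1 and 61.7 ± 13.5 CPM (adjusted p = 0.0544 by edgeR and 0.00761 by DESeq2). By edgeR it passed with the same filter (adjusted p = 0.0470), after thinning (0.0496) and without wild type 2 (0.0260). Cyba, the shared subunit of NADPH oxidases, had 87.7 and 90.3 CPM.

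**Figure D4:**
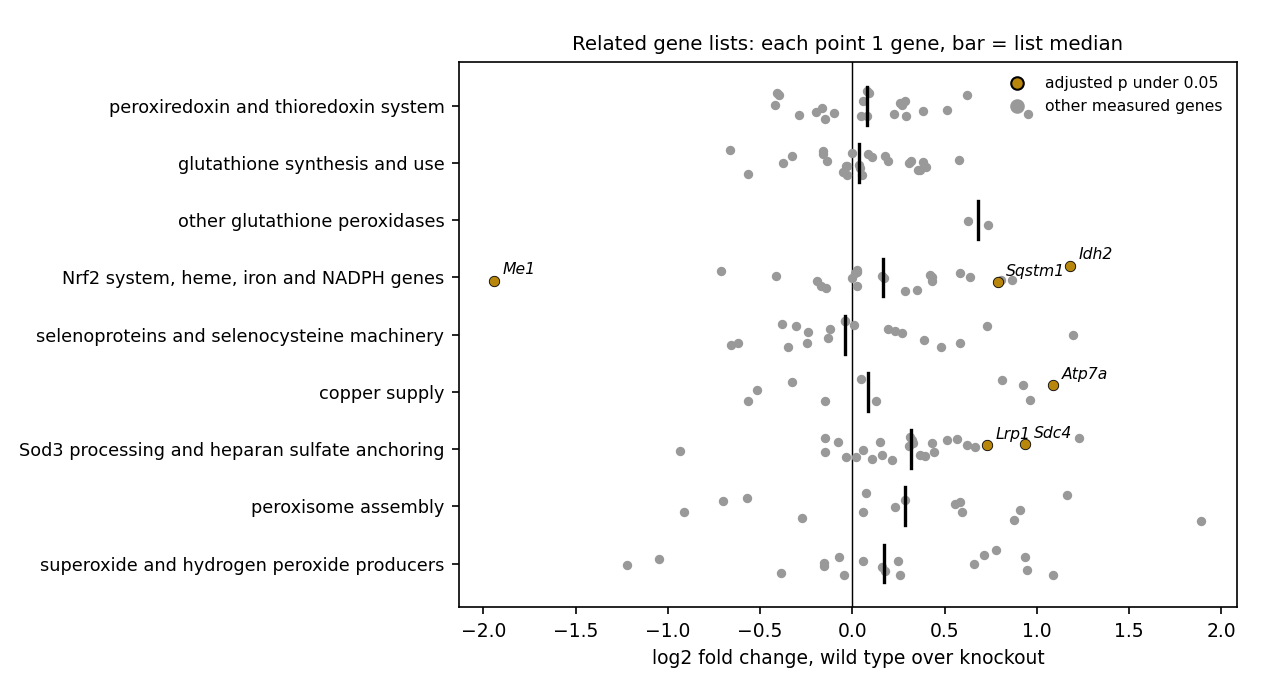
Log2 fold change, wild type over knockout, of each measured gene in 9 lists around the enzymes, with 1 point per gene and a black bar at the list median. The 6 genes with an edgeR adjusted p under 0.05 are named, and list medians run from -0.04 for selenoproteins to 0.68 for the 2 other peroxidases.

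Markers of cell types also differed between the groups. Over the whole table, edgeR called 1.05% of genes in favour of wild type and 1.0% in favour of knockout. The calls in each marker list are to be read beside these shares. Summed muscle stem cell markers ran from 6218 to 6680 CPM in wild type and were 4256 and 4131 CPM in knockout, and 2 of 14 (Sdc4 and Fgfr4) were called higher in wild type. Markers of fibro-adipogenic progenitors, the matrix-producing cells of muscle, ran from 4245 to 6240 CPM and were 3673 and 3690 CPM, with 2 of 13 called higher in wild type and 1 the other way. Endothelial markers ran the other way, from 1649 to 2273 CPM against 3773 and 3493 CPM (6 of 16 called higher in knockout). The 4 measured red blood cell markers summed to 215.5 to 295.1 CPM against 471.3 and 805.2 CPM, with 3 called. Muscle fibre markers reached 3274 CPM in knockout 2, against 780.2 CPM in knockout 1 and 918.6 to 1054 CPM in wild type, and 1 of 13 was called higher in knockout. That gene was Casq1, a calcium-binding protein of the sarcoplasmic reticulum, with 14.1 and 32.1 CPM against a mean of 4.45 CPM in wild type (edgeR adjusted p = 0.0152). Of 6 Schwann cell markers, 1, the myelin gene Mbp, was called higher in knockout (log2 fold change -1.26, edgeR adjusted p = 0.0105), and the list median was -0.69. Their summed CPM, 390.5 to 511.0 against 579.2 and 485.1 CPM, overlapped, and Pmp22, the most abundant of them, ran the other way (295.6 against 218.6 CPM). Pericyte and smooth muscle markers had a median of -0.36, with 1 of 11 above 0, and macrophage markers one of 0.07, with 6 of 10 above 0. None of the measured markers of these lists was at 0 in any library. By list median, muscle stem cell (0.52) and fibro-adipogenic markers (0.42) had the sign of Sod3, Sod2, Cat and Gpx3. Endothelial (-0.77), red blood cell (-1.19), muscle fibre (-1.23), Schwann cell and pericyte markers had the sign of Sod1. For the fibro-adipogenic list the libraries were apart in summed CPM but not in the mean centred log2 level, where wild type 2 (-0.22) lay below both knockout libraries (-0.20 and -0.20). The part of cell makeup in these differences was not tested.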

How the data were processed

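Raw counts per gene, deposited by the authors as whole numbers, were used as they stand. The submitters' processing notes name mm10 and list STAR, Trim Galore, edgeR and featureCounts (Subread). Their versions and the strand and multi-mapping settings were not given in the sources used here. The deposited table also gives gene length, another value used for RPKM. The table had been filtered: the third-highest CPM of a gene was never under 3.02, so genes found in knockout libraries alone would be missing from it. Of 10826 genes with a symbol, 10824 matched RefSeq (GRCm38.p6) by Entrez identifier.

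All genes were fitted in R 4.3.3 with edgeR 4.0.16 (filterByExpr, which removed none, TMM, glmQLFit, two-sided glmQLFTest, Benjamini-Hochberg, threshold 0.05) on genotype. The 5 libraries leave 3 residual degrees of freedom; intervals use 14, of which 11 are prior degrees of freedom borrowed across genes. Alternatives used limma 3.58.1 (voom), DESeq2 1.42.0, other scalings and filters, thinning to the shallowest library, a replicate block and each library left out. The fit was tested on simulated data. Deviations from the group means correlated at 0.05 and 0.05 between libraries sharing the number 1 or 2. With 2 knockout libraries these deviations mirror each other, so the check cannot decide whether the numbers pair libraries.

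Members and lists were chosen with earlier results of these data known. Named genes were all members, list genes past the threshold or, where fewer than 2 passed, the 2 with the smallest p, and the 6 and 3 nearest profiles; other list genes named were chosen for their role after their values were seen. Read overlap was looked up among RefSeq genes.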

Additional observations from a re-analysis of the deposited data

How the results depend on the processing

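The excess of Sod3 over the intracellular enzymes, 2.05 on the log2 scale, lay between 1.95 (replicate block) and 2.19 (thinned) over the other scalings, filters and tests, and between 1.86 and 2.25 with 1 library left out. The log2 fold change of Sod3 ran from 1.97 to 2.22 over all 15 settings, main included, and passed in 14. Members called higher in wild type numbered 0 with limma-voom, and those called higher in knockout 1 with DESeq2 and 0 to 1 with a library left out. The log2 fold change of Gpx1 ran from -0.41 to 0.05 and that of Gpx4 from -0.04 to 0.13, so neither has a settled sign. Of the redox lists, 5 genes called higher in wild type became 11 with DESeq2, 3 with RLE factors or total counts and 0 with limma-voom. They became 8 after thinning and 0 to 6 with a wild type library left out. The 1 called higher in knockout became 6 with DESeq2 and 2 with total counts, the stricter filter or the replicate block. It became 0 with limma-voom and 0 to 1 with a wild type library left out. Calls over all genes moved with the setting too. Higher in wild type, 118 became 433 with DESeq2, 98 with RLE factors, 93 with total counts, 8 with limma-voom and 126 after thinning. Higher in knockout, 112 became 457, 114, 143, 14 and 145 in the same settings. With a wild type library left out they ran from 11 to 176 and from 23 to 172. The causes were not tested, except that the stricter filter tests fewer genes. Depth limits the knockout side: 3 counts, the limit of a count of 0, are 0.971 CPM in knockout 2.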
